A study of Rattus norvegicus with 12 samples.

Results

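The Notch receptors, their ligands and the HES and HEY factors that they switch on were followed across the free walls of both ventricles, left (LV) and right (RV), of neonatal rats. The 10 members were chosen by gene name, 4 receptors (Notch1, Notch2, Notch3, Notch4), 3 ligands (Jag1, Jag2, Dll4) and 3 target genes (Hes1, Hey1, Hey2), among 32545 genes in the expression table. Each name matched 1 gene, and all 10 were among the 13910 genes with a mean level of at least 0.5 FPKM (fragments counted per kilobase of transcript and scaled to library size) that entered the tests. The animals were Sprague-Dawley rats that had a sham operation or a fistula between the abdominal aorta and the inferior vena cava on postnatal day 1 (P1), and the walls were taken on P7. The fistula sends arterial blood straight back to the heart and puts both ventricles under volume overload (VO). Crossing operation with ventricle gave 4 groups, named sham or VO and then LV or RV, with 3 libraries each and no genetic change in any of them. The labels do not say that the libraries of a group came from separate animals, although the study speaks of them as individuals, and the p-values measure the spread between these libraries, which may in part be technical.

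Notch receptors sit in the cell membrane and are activated by ligands of the Delta-like and Jagged families on a neighbouring cell. Ligand binding lets proteases cut the receptor, and the freed intracellular domain moves to the nucleus, binds the DNA-binding protein RBPJ and turns on HES and HEY genes, which encode repressors of transcription. In the heart the pathway is known for arterial and capillary patterning, for the endocardium and valves, for the formation of trabeculae and compact muscle, and for the smooth muscle and pericytes around vessels.

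RBPJ recognises the core letters TGGGAA, and the promoter stretch of Hes1 and Hey2 is shown because both encode target genes and both hold that core. Both run 5′ to 3′ on the strand of the gene, from 250 bases before to 50 bases after the start given by RefSeq on the rat build GRCr8. Capitals mark TGGGAA and, on the other strand, TTCCCA. Hes1 lay at chr11:84212996-84213295 on the minus strand and Hey2 at chr1:28640850-28641149 on the plus strand.
Hes1: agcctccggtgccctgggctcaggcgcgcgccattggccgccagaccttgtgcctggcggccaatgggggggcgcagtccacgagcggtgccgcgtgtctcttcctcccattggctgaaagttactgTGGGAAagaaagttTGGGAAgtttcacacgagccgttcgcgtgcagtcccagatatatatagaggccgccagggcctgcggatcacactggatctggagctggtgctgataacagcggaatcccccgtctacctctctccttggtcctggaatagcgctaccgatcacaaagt
Hey2: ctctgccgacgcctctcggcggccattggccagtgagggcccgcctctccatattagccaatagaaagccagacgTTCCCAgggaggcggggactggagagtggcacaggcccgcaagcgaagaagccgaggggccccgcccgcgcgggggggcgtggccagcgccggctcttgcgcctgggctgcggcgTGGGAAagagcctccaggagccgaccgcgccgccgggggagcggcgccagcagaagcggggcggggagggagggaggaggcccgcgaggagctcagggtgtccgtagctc

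Hes1 held the core in the same direction at positions -123 and -109, and Hey2 held it at -60 and, on the opposite strand, at -175, counted from the start site to the first base of each match. Of the 10 members 8 had a promoter in the table, Dll4 and Hey1 being the others, and 4 of the 8 held the core on either strand (Notch3, Notch4, Hey2 and Hes1). The core is short, and 25.7% of all 33469 promoters in the table held it, so a match describes the letters and does not by itself show binding.

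The libraries held 14121713 to 16871371 reads on genes, recovered as whole numbers from the FPKM values. The least covered member was Hey1, with 63 to 147 reads per library and a counting error of 8.25% to 12.6%, and the best covered was Notch3, with 2083 to 3605 reads. Ventricular muscle markers were abundant throughout, led by Actc1. Atrial muscle markers, which a ventricular wall should hold at a low level, summed to 1522 FPKM in VO RV replicate 2 and 440 FPKM in sham RV replicate 1, against 148 to 306 FPKM in the other libraries. Sham LV replicate 2 also stood apart. It had the smallest share of mitochondrial reads, 14.4% against 15.95% to 26.2% elsewhere, and it held the highest level of 7 members. It also held the lowest level of Notch2 and Hey2, and only Notch3, at 26.6 FPKM, was inside the range of the other libraries there. Where leaving out 1 of these 3 libraries moved a difference between the sham ventricles or between VO LV and sham LV by over 1.5 times, the value without it is given.

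The deposited table lists all 10 as protein-coding genes, on a build that is not given in the sources used here. The receptors were at chr3:3905453-3951025 (Notch1, minus strand), chr2:200187184-200317621 (Notch2, plus), chr7:14138495-14189688 (Notch3, minus) and chr20:4329811-4353785 (Notch4, plus). The ligands were at chr3:111135021-111145986 (Dll4, plus), chr3:130079361-130114770 (Jag1, minus) and chr6:137711155-137733026 (Jag2, minus). The targets were at chr11:74312806-74315248 (Hes1, minus), chr2:95320283-95322696 (Hey1, plus) and chr1:29191192-29201531 (Hey2, plus). FPKM divides by the listed transcript length, which was shortest for Hey1 at 939 bases and longest for Notch1 at 9526 bases.

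Over the 12 libraries the mean levels of the members ran from 3.83 to 33.7 FPKM, compared per length. Hes1 was the most abundant (mean 33.7 ± 4.37 FPKM, SD, n = 12), and it exceeded Notch3 (25.6 ± 2.81 FPKM), the receptor of smooth muscle and pericytes, in 11 of 12 libraries. Notch3 exceeded Notch1 in all 12 libraries. Below it Notch1 (14.5 ± 2.004 FPKM), Notch4 (13.9 ± 4.46 FPKM), Hey2 (11.9 ± 2.92 FPKM), Dll4 (11.4 ± 2.96 FPKM) and Jag2 (11.4 ± 2.37 FPKM) followed one another with overlapping spreads, and Dll4 was above Jag2 in 6 of 12 libraries. Hey1 (6.25 ± 1.73 FPKM) and Jag1 (5.70 ± 1.14 FPKM) also overlapped, Hey1 being higher in 7 of 12. Notch2 was lowest, at 3.83 ± 1.15 FPKM. Notch4 varied most between libraries, with a highest value 2.81 times the lowest. Hes1 and Notch3 varied least, both at 1.56 times.

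**Figure D1:**
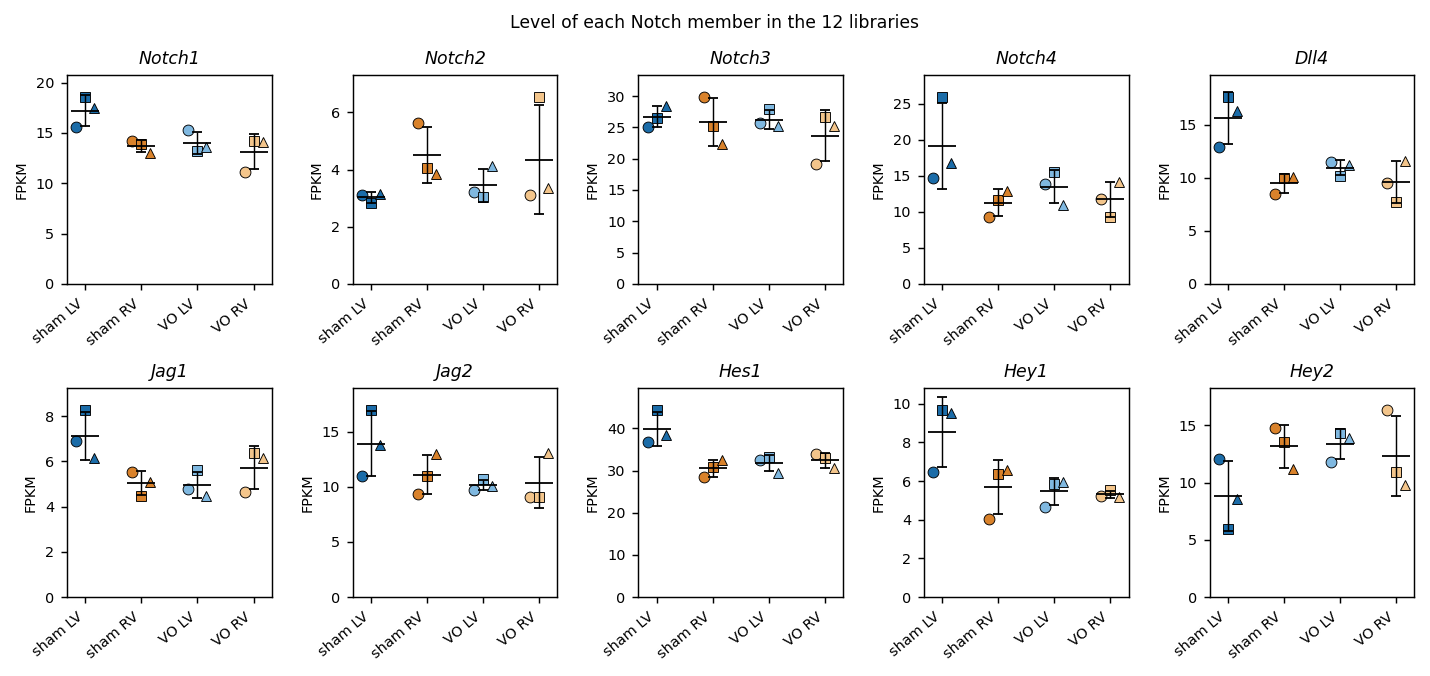
Level of each of the 10 members in FPKM (vertical axis, starting at 0) in the 4 groups. Points are libraries (circle, square and triangle for replicates 1, 2 and 3), and the bars give the mean ± SD of 3 libraries. The sham LV libraries of Dll4 sit between 12.9 and 17.6 FPKM, above all 9 other libraries, and those of Hey2 sit between 5.91 and 12.04 FPKM.

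To learn how the 2 ventricles differed before any overload, sham LV was compared with sham RV. Dll4, the Delta-like ligand of arterial and sprouting endothelium, was higher in the LV by 1.60-fold and was the only member called, with an adjusted p of 0.0387. A gene was called when limma gave a Benjamini-Hochberg adjusted p under 0.05 over all tested genes and the fold exceeded 1.3. Of all tested genes 3.86% were called in this comparison, and 1.51% were called higher in the LV, so a count of 1 of 10 members is near the background. At an unadjusted p under 0.05 the share was 7 of 10 members, beside 25.7% of all genes. In 6 of 10 members the libraries of the sham groups did not overlap, beside 32.2% of all genes. The median difference of the members was 0.34 on the log2 scale, and that of all tested genes was 0.012. With 3 libraries against 3, an exact two-sided permutation test of 1 gene cannot give a p below 0.10.

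The ligands were all higher on average in the sham LV. Dll4 measured 12.9, 17.6 and 16.3 FPKM in sham LV and 8.47, 9.96 and 10.05 FPKM in sham RV. No library of one group reached the range of the other, and the log2 difference was 0.68 (SE 0.15). Jag1, the Jagged ligand whose mutation causes Alagille syndrome in people, measured 6.91, 8.25 and 6.15 FPKM in sham LV and 5.51, 4.47 and 5.11 FPKM in sham RV. Its groups did not overlap either, and its log2 difference of 0.45 (SE 0.15) had an adjusted p of 0.0914 with limma. Jag2 measured 10.997, 16.9 and 13.8 FPKM against 9.38, 10.99 and 12.9 FPKM, so its groups overlapped, and its log2 difference of 0.30 (SE 0.18) had an adjusted p of 0.295 (limma). That difference was 0.15 without sham LV replicate 2, 0.46 without sham LV replicate 1 and 0.19 without sham RV replicate 1. Dll4 made up 41.2% to 45.0% of the summed FPKM of the 3 ligands in sham LV and 35.8% to 39.2% in sham RV, and the Jag2 share was lower in every sham LV library than in any sham RV library. The Jag1 share overlapped, at 17.0% to 22.4% and 17.6% to 23.6%.

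The call on Dll4 was a narrow one. Its log2 difference stayed between 0.59 and 0.81 when any 1 of the 12 libraries was left out, but the adjusted p (limma) ran from 0.0217 to 0.149. It passed 0.05 without sham LV replicate 1 (0.0705), 2 (0.141) or 3 (0.0630), without sham RV replicate 1 (0.149), 2 (0.110) or 3 (0.0563), and without VO LV replicate 1 (0.0597) or 2 (0.0576). Without both RV libraries that were high in atrial markers the difference was 0.60 with an adjusted p of 0.111 (limma), and no member was called. With libraries blocked by their number the adjusted p of Dll4 was 0.0759 (limma), and by treatment and number 0.147. With no filter on low values it was 0.0703, and in a separate fit of 6 libraries 0.0548. Of 19 alternatives other than leaving out 1 library, 11 kept the call and 8 lost it.

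Among the receptors, Notch4, which is found mainly in endothelium, showed the largest log2 difference, 0.71 (SE 0.22), with an adjusted p of 0.0813 in limma. It measured 14.7, 25.9 and 16.8 FPKM in sham LV and 9.28, 11.6 and 12.9 FPKM in sham RV. The groups did not overlap, sham LV replicate 2 was far above the rest, and without it the difference was 0.48. Notch1, the receptor of endothelium and endocardium, was at 15.6, 18.6 and 17.5 FPKM in sham LV and at 14.2, 13.9 and 13.0 FPKM in sham RV, a log2 difference of 0.31 (SE 0.11, adjusted p = 0.112 by limma) between groups that did not overlap. Notch2 went the other way. Its sham LV libraries were at 3.10, 2.82 and 3.16 FPKM and its sham RV libraries at 5.64, 4.05 and 3.83 FPKM, again without overlap, and the log2 difference was -0.49 (SE 0.23, adjusted p = 0.214 by limma). The highest of these values came from sham RV replicate 1, and without both libraries high in atrial markers the difference was -0.33. Notch3 did not separate the ventricles, at 25.1, 26.6 and 28.4 FPKM against 29.8, 25.3 and 22.3 FPKM. Its log2 difference of 0.05 had a 95% interval of -0.24 to 0.35, and without sham RV replicate 1 it was 0.16. Per library, Notch4 made up 25.2% to 35.1% of the summed receptor FPKM in sham LV and 15.7% to 24.9% in sham RV, while Notch2 made up 3.81% to 5.31% and 7.35% to 9.57%.

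Among the target genes, Hes1 came nearest to a call. It measured 36.7, 44.3 and 38.4 FPKM in sham LV and 28.4, 30.8 and 32.4 FPKM in sham RV. The lowest sham LV library was above the highest sham RV library, and the log2 difference of 0.37 (SE 0.09) had an adjusted p of 0.0503 (limma) and a fold of 1.29, so it missed both thresholds by a small margin. Hey1, a HEY repressor of arterial endothelium and atrial muscle, was at 6.44, 9.65 and 9.53 FPKM in sham LV and 4.06, 6.38 and 6.59 FPKM in sham RV, which overlapped, with a log2 difference of 0.55 (SE 0.19, adjusted p = 0.103 by limma) that was 0.35 without sham RV replicate 1. Hey2, the HEY factor of the compact ventricular muscle and of arteries, was lower in the sham LV on average. Its libraries were at 12.04, 5.91 and 8.53 FPKM in sham LV and 14.8, 13.5 and 11.2 FPKM in sham RV, and the log2 difference was -0.59 (SE 0.24, adjusted p = 0.146 by limma). The groups overlapped, and without sham LV replicate 2 the difference was -0.35. The ratio of Hey2 to Hey1 was 1.87, 0.612 and 0.895 in sham LV and 3.64, 2.12 and 1.69 in sham RV, so it overlapped through sham LV replicate 1.

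**Figure D2:**
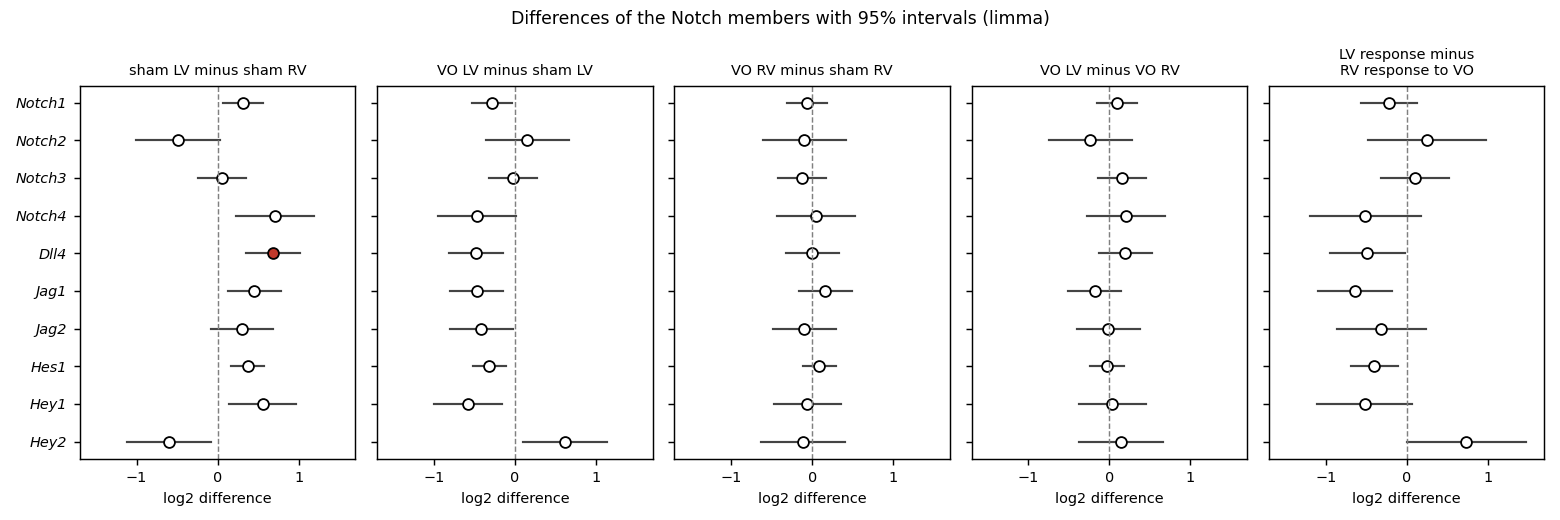
Log2 difference of each member (horizontal axis) in 5 comparisons, with its 95% interval from limma. The filled red point is the 1 called value, Dll4 in sham LV against sham RV at 0.68, and open points were not called. In VO RV against sham RV every interval spans 0.

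To see what volume overload did in the LV, VO LV was compared with sham LV. No member was called by limma, beside 0.0935% of all tested genes, and voom on the recovered reads also called 0. The values at an unadjusted p under 0.05 numbered 7 of 10, beside 23.4% of all genes. The groups did not overlap in 6 of 10 members, all lower in VO LV, beside 32.4% of all genes in either direction and 15.7% in that direction. The median log2 difference of the members was -0.36, and that of all tested genes was -0.020. This comparison and the one above use the same sham LV libraries, so a library that is high in sham LV raises one difference and lowers the other, and the 2 sets of values are not independent. Without sham LV replicate 2, 4 of 10 members had an unadjusted p under 0.05 in each comparison in place of 7. The differences that moved by over 1.5 times without it were those of Hey2 and Jag2 in both comparisons and of Notch4 in VO LV against sham LV, while that of Dll4 went from 0.68 to 0.59 between the sham ventricles and from -0.48 to -0.39 in VO LV against sham LV.

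All 3 ligands were lower in every VO LV library than in any sham LV library, though none was called. Dll4 was at 11.5, 10.2 and 11.2 FPKM in VO LV, below all sham LV libraries, with a log2 difference of -0.48 (SE 0.15, adjusted p = 0.102 by limma). Jag1 was at 4.77, 5.60 and 4.49 FPKM, also below all sham LV libraries, with a difference of -0.47 (SE 0.15, adjusted p = 0.102 by limma). Jag2 was at 9.75, 10.7 and 10.1 FPKM, just under the lowest sham LV library, with a difference of -0.41 (SE 0.18, adjusted p = 0.191 by limma) that was -0.26 without sham LV replicate 2. The 3 ligands summed to 30.8, 42.8 and 36.3 FPKM in sham LV and to 26.0, 26.4 and 25.7 FPKM in VO LV. The VO LV libraries were thus close to each other and below every sham LV library, and the share of Dll4 in that sum overlapped, at 38.4% to 44.2% in VO LV.

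Of the receptors, Notch1 alone had groups that did not overlap. Notch1 was at 15.2, 13.2 and 13.6 FPKM in VO LV, below all sham LV libraries by a small margin, with a log2 difference of -0.28 (SE 0.11, adjusted p = 0.164 by limma). Notch4 was at 13.9, 15.5 and 11.01 FPKM and overlapped with sham LV, with a difference of -0.46 (SE 0.22, adjusted p = 0.231 by limma). Without sham LV replicate 2 it was -0.23, with an adjusted p of 0.599 (limma). Notch2 (3.21, 3.03 and 4.11 FPKM) and Notch3 (25.6, 27.9 and 25.1 FPKM) overlapped with sham LV as well, with differences of 0.16 and -0.02. The Notch2 difference was 0.040 without VO LV replicate 3. The Notch3 share of the receptor sum was 44.2% to 46.8% in VO LV, above all sham LV libraries at 35.9% to 43.1%.

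Of the targets, Hes1 was at 32.6, 33.3 and 29.5 FPKM in VO LV, below all sham LV libraries, with a log2 difference of -0.31 (SE 0.09, adjusted p = 0.0926 by limma). Hey1 was at 4.68, 5.84 and 5.93 FPKM, again below all sham LV libraries, with a difference of -0.58 (SE 0.19, adjusted p = 0.113 by limma). Hey2 was higher on average, at 11.8, 14.3 and 13.9 FPKM, and overlapped with sham LV replicate 1. Its difference of 0.62 (SE 0.24) had an adjusted p of 0.153 (limma), and without sham LV replicate 2 it was 0.38. The ratio of Hey2 to Hey1 was 2.53, 2.45 and 2.34 in VO LV, above all sham LV libraries, while neither gene was called.

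**Figure D3:**
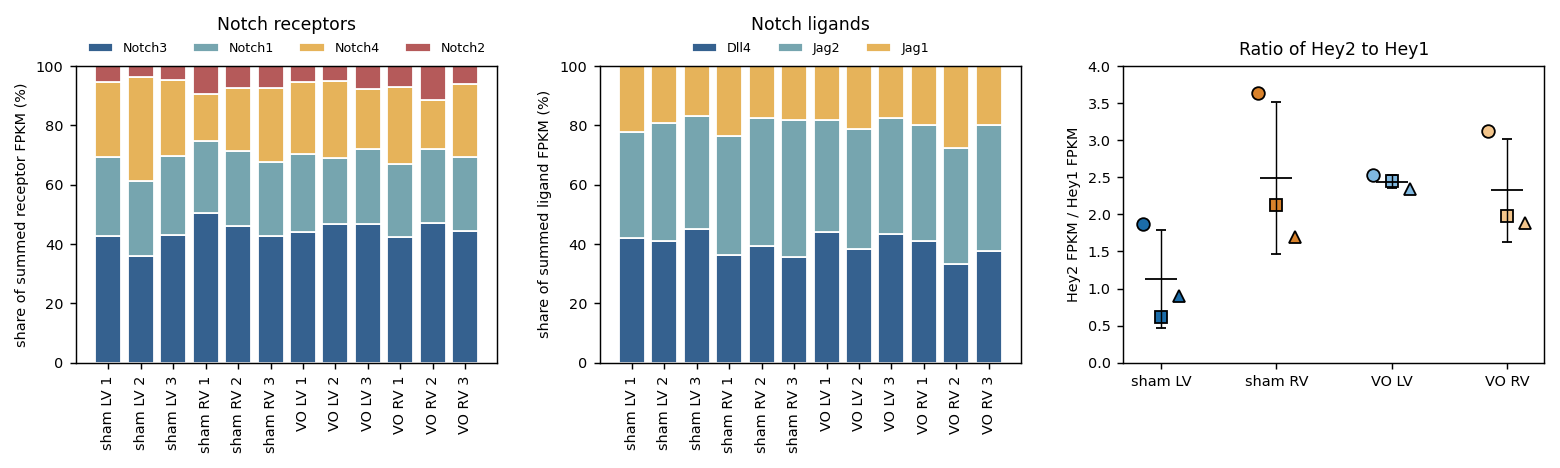
Makeup of the receptors and of the ligands in each library, as each gene's percentage of the summed FPKM of its family (left and middle, stacked to 100%), and the ratio of Hey2 FPKM to Hey1 FPKM (right, points are libraries, bars the mean ± SD of 3). Notch3 is the largest receptor share in every library, and the ratio in VO LV lies between 2.34 and 2.53.

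The RV was asked the same question by comparing VO RV with sham RV. Here no gene of the table was called by limma (0%) and voom called 0, and 8.40% of genes but 0 of 10 members had an unadjusted p under 0.05. In no member did the groups separate, beside 12.5% of all genes. The log2 differences ran from -0.12 for Notch3 to 0.16 for Jag1, and the widest 95% interval among the 10 was that of Hey2, from -0.63 to 0.40. Without VO RV replicate 2 the differences ran from -0.40 for Notch2 to 0.20 for Notch4, and 1 of 10 members, Notch2, had an unadjusted p under 0.05 in limma with an adjusted p of 0.424. Dll4 was at 9.54, 7.69 and 11.6 FPKM in VO RV, on both sides of its sham RV libraries. Its difference of 0.0035 had an interval of -0.33 to 0.33, so a change of the size seen between the sham ventricles lies outside it. Hes1 was at 33.9, 33.0 and 30.5 FPKM and Hey1 at 5.22, 5.52 and 5.18 FPKM, and both overlapped with sham RV.

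Notch2 was uneven within the VO RV group, at 3.12, 6.54 and 3.36 FPKM. The high value came from replicate 2, the library with the most atrial marker signal, and the next highest Notch2 value of the 12 was that of sham RV replicate 1, the other library high in these markers. Across the 12 libraries Notch2 went with the mean log2 level of the 4 atrial markers at r = 0.88, a description over points that share 2 extreme libraries. Notch4 (9.23 FPKM) and Dll4 (7.69 FPKM) were at their lowest of all libraries in the same VO RV replicate 2. The part of tissue composition in these values was not tested.

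The ventricles were then compared under overload. In VO LV against VO RV no member was called by limma, beside 0.00719% of all genes, voom called 0, and 0 of 10 had an unadjusted p under 0.05, beside 11.4% of all genes. No member had groups without overlap, beside 16.1% of all genes. The log2 differences ran from -0.24 for Notch2 to 0.20 for Notch4, and that of Dll4 was 0.20 with an interval of -0.13 to 0.53. Without VO RV replicate 2, the library highest in atrial markers, all 10 differences moved by over 1.5 times. Notch4 was then at 0.046, Dll4 at 0.055 and Notch2 at 0.069, and the others lay between -0.10 (Jag1) and 0.25 (Notch3). Without VO RV replicate 3, 1 of 10 members, Dll4, had an unadjusted p under 0.05, with a difference of 0.33 and an adjusted p of 0.666 (limma). Missing the threshold does not show that the levels were equal, and the intervals reached 0.68 for Notch4 and -0.75 for Notch2.

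Whether the response to overload differed between the ventricles was tested directly as the LV response minus the RV response. No member was called by limma, beside 4.19% of all genes, and voom called 0. The unadjusted p was under 0.05 in 4 of 10, beside 25.5% of all genes, which were Jag1, Dll4, Hey2 and Hes1. That count was 2 without sham LV replicate 2 or 3, sham RV replicate 1 or 2, VO LV replicate 2 or 3, or VO RV replicate 3. The difference was -0.64 for Jag1 (SE 0.21, adjusted p = 0.0969 by limma) and -0.40 for Hes1 (SE 0.13, adjusted p = 0.0965 by limma). It was -0.49 for Dll4 (SE 0.21, adjusted p = 0.180 by limma) and 0.74 for Hey2 (SE 0.33, adjusted p = 0.194 by limma). Without VO RV replicate 1 the value for Jag1 was -0.77 and its adjusted p 0.0436 (limma), the only call on a member when 1 library was left out of this test. The lower LV values under overload are therefore not shown to be particular to the LV.

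Endothelial markers moved with some of these genes and not with others. The summed level of 9 endothelial markers (Cdh5, Kdr, Flt1, Tek, Tie1, Egfl7, Esam, Erg and Emcn, none of them at 0, Cdh5 highest) was 584 to 641 FPKM in sham LV and 403 to 446 FPKM in sham RV. It was 459 to 509 FPKM in VO LV and 421 to 533 FPKM in VO RV. In sham LV against sham RV all 9 were higher, 4 of them called, with a median log2 difference of 0.42. In VO LV against sham LV 8 of 9 were lower, 0 of them called by limma and 4 at an unadjusted p under 0.05, with a median of -0.24. In a bulk sample, fewer cells of a type and less RNA per cell cannot be told apart.

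Over the 12 libraries Dll4 went with the mean log2 endothelial marker level at r = 0.91, Notch4 at 0.85, Notch1 at 0.83 and Hes1 at 0.76. Jag2 was at 0.74, Hey1 at 0.72 and Jag1 at 0.70. Notch3 was at 0.35, and Notch2 (-0.62) and Hey2 (-0.79) ran the other way. These values are across points that share the library and its group. With that marker mean as a covariate, the sham LV to sham RV difference of Dll4 was 0.08 (adjusted p = 1.00 by limma), and no gene of the table was called. The marker mean itself separated the sham groups, at 5.56 to 5.70 in sham LV and 5.13 to 5.24 in sham RV. A fit with this covariate therefore has little power for that comparison, and a lost call in it does not show what endothelial content did. Expressed as a ratio to the same mean, Dll4 was 0.23 higher on the log2 scale in the sham LV, with an adjusted p of 0.156 (limma). That scaling moves the median of all genes to -0.44, and on it 3 members were called lower in the sham LV by limma, Hey2 at -1.04 (adjusted p = 0.0136), Notch2 at -0.94 (adjusted p = 0.0146) and Notch3 at -0.40 (adjusted p = 0.0363). On the same scaling 6279 of all 13910 tested genes were called in either direction, so the count of 3 members is not above that background. Notch1, Jag2 and Hes1 had values of -0.13, -0.15 and -0.077 that were not called. Per 100 FPKM of endothelial markers, Dll4 was at 2.21, 2.75 and 2.66 in sham LV and at 2.10, 2.32 and 2.25 in sham RV, which overlapped. Hey2 on that scale was at 1.46 on average in sham LV and 3.10 in sham RV. What part the endothelial content had in the differences was not tested beyond these values.

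**Figure D4:**
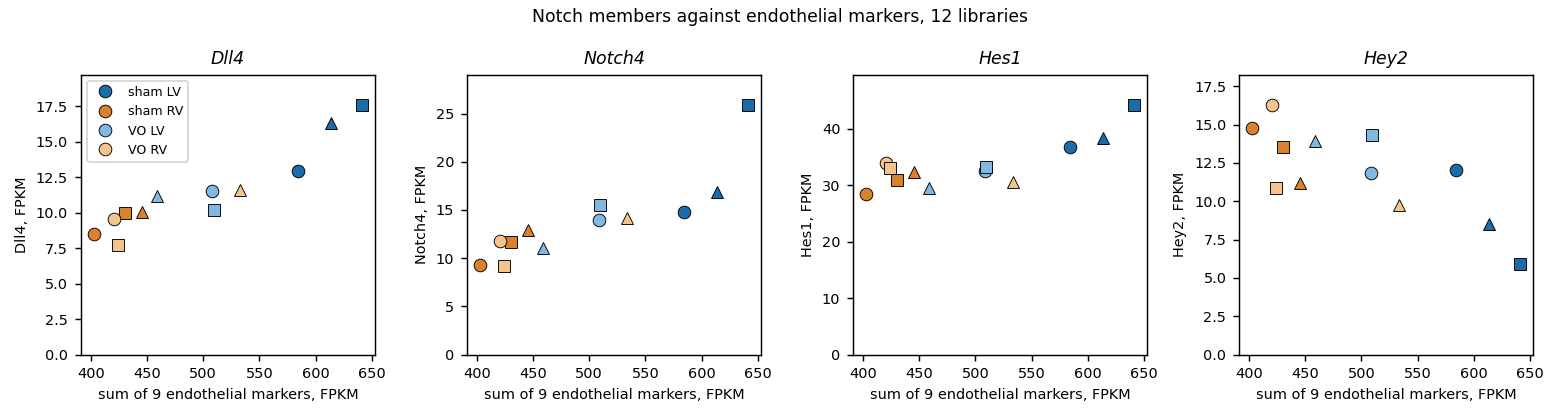
FPKM of Dll4, Notch4, Hes1 and Hey2 (vertical axes, from 0) against the summed FPKM of 9 endothelial markers (horizontal axis), 1 point per library with the group by colour and the replicate by symbol. The sham LV libraries, at 584 to 641 FPKM of markers, are at the right of every panel, and their Dll4 is the highest of the 12.

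Sums of markers of other cell types in the wall were also read by group, as descriptions. Between the sham ventricles limma called 3 of 8 arterial markers, with Dll4 among them, and 1 of 10 ventricular muscle markers. It called 0 of the mural, endocardial, red blood cell, macrophage and fibroblast markers, though 5 of 7 red blood cell markers had an unadjusted p under 0.05. In VO LV against sham LV the red blood cell, macrophage and fibroblast markers had 0 called and 0 at an unadjusted p under 0.05. A sum of 6 arterial markers that leaves out Dll4 and Hey1 was 110 to 134 FPKM in sham LV, 96.4 to 99.8 in sham RV, 97.1 to 105 in VO LV and 89.1 to 103 in VO RV. The mural markers, which go with Notch3 in the vessel wall, summed to 544 to 712 FPKM in sham LV and 474 to 524 in sham RV, led by Rgs5. The 3 endocardial markers, led by Npr3, summed to 5.03 to 11.6 FPKM in sham LV and 16.8 to 25.2 in sham RV, the reverse of the endothelial list. They summed to 5.07 to 13.6 FPKM in VO LV and 13.2 to 37.9 in VO RV, with a median log2 difference of -1.24 and 0 called by limma. The 10 ventricular muscle markers summed to 25853 to 27761 FPKM in sham LV and 22360 to 26223 in sham RV, and the lowest sum of all, 18653 FPKM, was in VO RV replicate 2. In VO LV they summed to 26784 to 29345 FPKM, and 7 of 10 were higher there than in sham LV, with a median log2 difference of 0.25 and 0 called. The 7 red blood cell markers summed to 13394 to 17352 FPKM in sham LV and 6779 to 11380 in sham RV, and all 7 were higher in sham LV on average. They summed to 8683 to 13819 FPKM in VO LV, and all 7 were lower there than in sham LV, with a median log2 difference of -0.41. The 8 macrophage markers summed to 112 to 126 FPKM in sham LV, 83.5 to 95.9 in sham RV and 86.4 to 114 in VO LV, and the 8 fibroblast markers to 2594 to 2789, 2770 to 3640 and 2063 to 2543. In VO RV the fibroblast markers summed to 2533 to 4935 FPKM. Of the 8, 7 were lower in VO LV than in VO RV, with a median log2 difference of -0.55 and 0 called. The 4 epicardial markers, led by Wt1, summed to 24.1 to 29.9 FPKM in sham LV, 29.04 to 37.7 in sham RV, 17.4 to 26.8 in VO LV and 26.4 to 53.9 in VO RV. Their median log2 difference was -0.61 between the sham ventricles, with 1 of 4 called, -0.43 in VO LV against sham LV and -1.32 in VO LV against VO RV, with 0 called in either. The 4 lymphatic markers, led by Lyve1, summed to 21.1 to 27.6 FPKM in sham LV and 23.8 to 29.9 in sham RV, with 1 of 4 called. The part of these cell types in the member values was not tested.

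Some pairs of members went together from library to library and others did not. Over the 12 libraries, as log2 levels, Dll4 and Notch4 had r = 0.89, Notch4 and Jag2 0.84, Notch4 and Hes1 0.84 and Hey1 and Hes1 0.81. Hey2 ran against Jag2 (-0.86), Notch1 (-0.83) and Jag1 (-0.77), and Notch2 against Notch4 (-0.80). Notch3 went with Notch1 at 0.63, and its r with the other 8 members lay between -0.28 (Hey2) and 0.39 (Jag1), with 0.011 for Hes1 and 0.087 for Notch4. These are descriptions over libraries that share groups, preparation and depth, and sham LV replicate 2 was the highest or lowest point of 9 of 10 members.

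Among all tested genes, the closest in pattern to Dll4 were Usmg5 (r = 0.96) and Kitlg (0.95), to Notch4 Kank3 (0.98) and Ushbp1 (0.97), and to Notch1 Prkch (0.96) and Gimap9 (0.94). For Notch2 they were Adamts17 (0.98) and Eps15 (0.97), and for Notch3 Cbfa2t3 (0.92) and LOC688765 (0.89). For Jag1 they were Tmem198b (0.95) and Fcgrt (0.94), and for Jag2 Slc9a3r2 (0.94) and Tpcn2 (0.92). For Hes1 they were Sub1 (0.95) and Sema6b (0.94), for Hey2 Fdft1 (0.95) and Vps4a (0.93), and for Hey1 AABR07035782.1 (0.92) and AY172581.3 (0.90). Each r is Pearson's over 12 libraries on the log2 scale. The genes were picked as the highest r among all tested genes, so high values would arise from the picking alone. The libraries also share groups, and sham LV replicate 2 was an extreme point for most members. These values do not show that the genes are regulated together.

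The rest of the pathway was read from lists of other ligands, glycosyltransferases, ubiquitin ligases and trafficking proteins, proteases, nuclear cofactors, corepressors and other targets, of which 53 of 63 genes were tested. In sham LV against sham RV 0 of the 53 were called by limma, 16 had an unadjusted p under 0.05, and the median log2 difference was -0.06. In VO LV against sham LV the numbers were 0 and 12, in VO RV against sham RV 0 and 1, and in VO LV against VO RV 0 and 3. The background shares are those given above for the members.

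Dll1, another Delta-like ligand, was at 2.44, 3.34 and 2.79 FPKM in sham LV and 1.58, 1.99 and 1.72 FPKM in sham RV, without overlap, with a log2 difference of 0.56 (SE 0.14, adjusted p = 0.05005 by limma). In VO LV it was at 1.98, 1.87 and 1.85 FPKM, below all sham LV libraries, and in VO RV at 1.94, 2.38 and 2.18 FPKM, which overlapped with sham RV and with VO LV. Dll3 was listed at 0 in 9 of 12 libraries and did not reach 0.14 FPKM in any. Lfng, the fringe enzyme that adds sugar to the receptors and alters which ligand they answer to, was at 20.1, 29.3 and 29.1 FPKM in sham LV and 13.0, 19.5 and 18.3 FPKM in sham RV, with a difference of 0.61 (SE 0.20, adjusted p = 0.0960 by limma).

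Downstream, Rbpj was at 12.6 to 17.2 FPKM in sham LV and 17.7 to 22.1 FPKM in sham RV, a log2 difference of -0.37 (SE 0.15, adjusted p = 0.157 by limma) between groups that did not overlap. A second entry of the same name was under the level filter. Heyl, the HEY factor of smooth muscle, was steady, with group means of 18.7 to 19.9 FPKM and a sham difference of -0.06. The coactivator Ep300 was lower in the sham LV by limma's estimate of -0.76 (SE 0.23), with an adjusted p of 0.0808, and Furin, the convertase that first cuts the receptors, had -0.41 (SE 0.11) and 0.0537. In VO LV against sham LV the smallest p-values were those of Gata2 (-0.53, adjusted p = 0.0663 by limma), Furin (0.41, 0.0714) and Epn1 (0.42, 0.0796), an epsin that takes part in ligand endocytosis. In VO RV against sham RV they were those of Neurl1b (-0.75, adjusted p = 0.536 by limma), Furin (-0.22, 0.605) and Epn1 (-0.23, 0.620). In VO LV against VO RV they were those of Neurl1b (0.92, adjusted p = 0.239 by limma), the Numb relative Numbl (-0.38, 0.317) and Epn1 (0.30, 0.383).

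In the test of the LV response against the RV response, 3 of the 53 were called, beside 4.19% of all genes in either direction and 3.46% in theirs, a count near the background, and all were higher in the LV response. Neurl1b, a ubiquitin ligase that acts on Notch ligands, was at 5.59, 8.98 and 8.67 FPKM in sham LV and 12.02, 10.7 and 13.8 FPKM in VO LV. In the RV it was at 12.9, 10.4 and 9.15 FPKM after sham and 6.14, 7.88 and 4.78 FPKM after overload. The VO and sham libraries did not overlap in either ventricle and lay in opposite order, and the difference of the responses was 1.39 (SE 0.29, adjusted p = 0.0329 by limma). Furin was at 28.0 to 35.2 FPKM in sham LV and 40.7 to 44.3 in VO LV, and at 38.5 to 46.9 in sham RV and 33.1 to 38.5 in VO RV, with a difference of 0.62 (adjusted p = 0.0440 by limma). Epn1 was at 50.5 to 67.1 FPKM in sham LV and 78.5 to 81.6 in VO LV, and at 74.0 to 80.9 in sham RV and 58.3 to 74.8 in VO RV, with a difference of 0.65 (adjusted p = 0.0491 by limma). The count fell to 0 with no filter on low values, with either replicate block, with the endothelial covariate and without both RV libraries high in atrial markers. It was also 0 without sham LV replicate 1 or 2, sham RV replicate 1 or 2, any 1 VO LV library or VO RV replicate 3, and it was 1 without sham RV replicate 3 or with the gene-length trend removed. In the same test 2 of 10 ventricular muscle markers (median 0.30), 1 of 8 macrophage markers (-0.57) and 1 of 4 lymphatic markers (-0.31) were called. The other marker lists had 0 called. The part of cell content in the 3 calls was not tested.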

How the data were processed

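The authors sequenced poly-A selected, paired-end libraries of ventricular free wall RNA. Per the labels and the study's methods, reads were aligned with HISAT2 2.0.5 and counted per gene with featureCounts 1.5.0-p3. The genome build and annotation are not given in the sources used here. The authors deposited FPKM values, normalized for gene length and scaled between libraries. The library total implied by the values was 0.967 to 1.124 times the reads on genes, so the scaling was not by the reads on genes alone. Median-ratio size factors of the deposited values were 1.002 to 1.007, so dividing by them changed little. Their tool notes also name StringTie 1.3.3b, GATK 3.7 and DESeq2 1.20.0. DESeq2, which the authors used for their own comparisons, was not run here. No column of values was left unmapped (0).

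FPKM was divided by median-ratio size factors and tested as log2(value + 0.5) with limma 3.58.1 (trend) in R 4.3.3, in 1 model of 4 groups, for genes with a mean of at least 0.5 FPKM. Fold changes on this scale understate the change of low genes. Differences were called at an adjusted p under 0.05 and a fold over 1.3. The test was checked on simulated data. Dividing low FPKM values by the smallest step gave whole reads for 100% of values under 200 reads (tolerance 0.02), which gives the depth quoted and was the input to voom. Exact tests and drawings used SciPy 1.17.1, pandas 2.3.3 and matplotlib 3.10.9.

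The members and all gene lists were chosen with earlier results of these data known. All 10 members are named. Of other pathway genes, the called ones are named, otherwise up to 3 with the smallest p per comparison, along with Dll1, Dll3, Heyl, Rbpj and Lfng, and for each member the 2 genes of highest correlation. Promoters and starts are from RefSeq. Alternatives were other scalings, pseudocounts, filters, fits, covariates, replicate blocks and leaving out each library. Voom with median-ratio factors, the mitochondrial share, the ratio to the endothelial mean and leaving out both RV libraries high in atrial markers were chosen after seeing the data. Pecam1, Nfatc1, Hdac1, Maml3, Nrarp and Aph1b were not analysed here.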

Additional observations from a re-analysis of the deposited data

Results flagged for a closer look

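In the test of the LV response against the RV response, 3 of 53 other genes of the wider pathway were called, a count near the background of 4.19% of all genes (3.46% in their direction). The LV response minus the RV response was 1.39 on the log2 scale for Neurl1b (0.64 in the LV and -0.75 in the RV, adjusted p = 0.0329 by limma). It was 0.65 for Epn1 (0.42 and -0.23, adjusted p = 0.0491 by limma) and 0.62 for Furin (0.41 and -0.22, adjusted p = 0.0440 by limma). The count was 0 with no filter on low values, with either replicate block, with the endothelial covariate, without both RV libraries high in atrial markers, and in 8 of the 12 fits that left out 1 library. None of the 10 receptors, ligands and targets met this test.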

How the results depend on the processing

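The count of members called between the sham ventricles was 1 (Dll4), and it was 0 with no filter on low values, in a separate fit of 6 libraries, with the mitochondrial share or the endothelial marker mean as a covariate, and without both RV libraries high in atrial markers. It was 2 with array weights (Jag1 added), with the gene-length trend removed (Notch1 added) and with voom and median-ratio factors (Hes1 added). It was 3 as a ratio to the endothelial mean, where Notch2, Notch3 and Hey2 were called lower and Dll4 was not. That ratio called 6279 of all 13910 tested genes, so the count of 3 members is not above the background there. The count of members called between the sham ventricles ranged from 0 to 1 when 1 library was left out. In the test of LV against RV responses it ranged from 0 to 1 as well. The count of members without overlap ranged from 0 to 2 in VO RV against sham RV and in VO LV against VO RV. The labels do not say whether LV and RV libraries with the same number came from 1 heart. Deviations of same-numbered libraries correlated at -0.22 to 0.12, and at 0.038 to 0.12 between the sham ventricles. Of 12 such pairs 2 passed 0.1, the level required of every pair for a block to be used. The 12 include pairs of a sham with a VO library, which cannot come from 1 heart. The rule therefore cannot show that LV and RV libraries of the same number were unpaired. The fits without a block are the ones reported, and those with a block are given beside them. With a replicate block by number the adjusted p of Dll4 between the sham ventricles was 0.0759 (limma), and by treatment and number 0.147, so that 0 members were called. The block by number gave 0 members in the other comparisons, and the block by treatment and number gave 0 in VO LV against VO RV and in the difference of the responses, the others it could be run for. Both blocks took the 3 calls on other pathway genes in the difference of the responses to 0.

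Signs that turned belonged to values that were not called in the fit reported. With the endothelial covariate, LV minus RV after sham was -0.062 for Notch1, -0.19 for Notch3, -0.16 for Notch4, -0.57 for Jag2 and 0.55 for Hey2. VO LV minus sham LV was -0.094 for Notch2, 0.12 for Notch3, 0.047 for Notch4, 0.099 for Jag2 and -0.047 for Hey2, and VO RV minus sham RV was -0.13 for Notch4, -0.11 for Dll4 and 0.11 for Hey2. VO LV minus VO RV was -0.048 for Hey1, and the difference of the responses was 0.075 for Notch1, -0.081 for Notch2, 0.17 for Notch4, 0.37 for Jag2 and -0.16 for Hey2. As a ratio to the endothelial mean, LV minus RV after sham was -0.13 for Notch1, -0.40 for Notch3, -0.15 for Jag2 and -0.077 for Hes1, and VO LV minus sham LV was 0.24 for Notch3. VO RV minus sham RV was -0.042 for Notch4 and -0.085 for Dll4, VO LV minus VO RV was -0.0030 for Notch1 and -0.063 for Hey1, and the difference of the responses was 0.13 for Notch1 and 0.037 for Jag2. VO LV minus VO RV was -0.010 for Hey1 with array weights, and -0.029 for Hey1 and 0.00047 for Notch2 with the atrial covariate. With the gene-length trend removed, VO RV minus sham RV was 0.046 for Notch1 and the difference of the responses was -0.074 for Notch3. Without both RV libraries high in atrial markers, VO RV minus sham RV was 0.037 for Hey2 and VO LV minus VO RV was 0.069 for Notch2.

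Leaving out 1 library gave ranges across 0 for values near 0. In VO RV against sham RV these were -0.12 to 0.051 for Notch1, -0.40 to 0.079 for Notch2, -0.22 to 0.020 for Notch3, -0.091 to 0.20 for Notch4, -0.26 to 0.014 for Jag2, -0.13 to 0.14 for Dll4, -0.27 to 0.055 for Hey1 and -0.33 to 0.031 for Hey2. In VO LV against VO RV they were -0.018 to 0.16 for Notch1, -0.41 to 0.069 for Notch2, -0.096 to 0.15 for Jag2, -0.019 to 0.14 for Hey1, -0.0053 to 0.35 for Hey2 and -0.075 to 0.022 for Hes1. For Notch3 they were -0.043 to 0.16 between the sham ventricles, -0.067 to 0.024 in VO LV against sham LV and -0.042 to 0.20 for the difference of the responses. The cause of these changes was not tested. Over the whole table the calls were 537 between the sham ventricles, with 0 to 870 when 1 library was left out and 0 (replicate block by treatment and number) to 6279 (ratio to the endothelial mean) otherwise. They were 13 in VO LV against sham LV, with 0 to 554 and 0 to 1268, including 198 with voom and 341 with voom and median-ratio factors, none of them a member. They were 1 in VO LV against VO RV, with 1 to 48 and 1 to 136, and 583 for the difference of the responses, with 0 to 1003 and 0 to 1563. Of the 53 other pathway genes, 0 to 2 and 0 to 27 were called between the sham ventricles, 0 and 0 to 4 in VO LV against sham LV, and 0 to 3 and 0 to 6 for the difference of the responses. With the endothelial covariate, 1 member between the sham ventricles and 0 for VO LV against sham LV and for the difference of the responses had an unadjusted p under 0.05. Depth limits Hey1 most, and 3 libraries per group limit every p-value.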
